A study of Mus musculus with 8 samples.

Results

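Messenger RNA of Ragulator, of its Rag GTPases and of folliculin was followed in mouse haematopoietic stem cells (HSCs) that had lost Nynrin. The 9 genes were Lamtor1 to Lamtor5, Rraga, Rragc, Rragd and Flcn, taken by symbol from a count table of 55401 genes. These 9 genes were chosen on their measured values in this same comparison, so their differences between the groups are given as a description. Calls from the fit over all genes are listed for them but not read as support. All 9 passed the filter on low counts and were among the 27573 genes fitted.

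Ragulator is a scaffold of 5 small proteins on the surface of the lysosome. LAMTOR1 is anchored in the membrane by lipids and wraps around the LAMTOR2-LAMTOR3 pair and the LAMTOR4-LAMTOR5 pair. It holds the Rag GTPases, dimers of RagA or RagB with RagC or RagD, which bring the growth kinase complex mTORC1 to the lysosome when amino acids are plentiful. Folliculin, with its partner FNIP1 or FNIP2, stimulates GTP hydrolysis on RagC and RagD. In HSCs, restraint of mTORC1 is known to protect quiescence.

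Bone marrow of 8-week-old C57BL/6 mice was the source of the HSCs. The Nynrin CKO group (4 libraries) carried 2 floxed Nynrin alleles with Tie2-Cre, and the control group (4 libraries, genotype given as wild type) carried the same floxed alleles, with no Cre named for it. Tie2 drives Cre in endothelium and in blood cells from their origin onward, so the deletion is not restricted to adult HSCs, and what Cre does by itself cannot be told apart from what Nynrin loss does. About 3000 sorted cells per sample are stated in the labels, while the series text also names a smaller number, so the input is not settled. Whether the libraries are from different animals is not in the labels, so p-values measure only the spread between these samples, which may be technical.

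Total counts ran from 36942835 to 56437299 per library. Values are given as CPM, counts relative to the library total after scaling by TMM factors, and folds as log2 of Nynrin CKO over control with the standard error of the edgeR fit. The mean level of Nynrin itself was 10.4 ± 2.49 CPM in the Nynrin CKO group against 37.3 ± 8.56 CPM (SD, n = 4 each), 27.8% of the control level. The libraries fell into 2 sets that cross the groups. The receptor-poor libraries, control 4 and Nynrin CKO 3 and 4, had 177 to 216 CPM of olfactory and vomeronasal receptor reads and 28914 to 31344 genes with counts. The other 5, receptor-rich, had 873 to 1449 CPM and 40240 to 44562 genes. The Nynrin CKO libraries also formed 2 pairs: the mean chi-square per gene was 22.9 between 1 and 2 and 22.6 between 3 and 4, but 249 to 258 across these pairs, and 38.3 to 77.4 between controls. Standard errors over 4 Nynrin CKO libraries treat them as separate samples. When each pair was summed to 1 sample, 0 genes passed edgeR's test, and 3022 genes had a p under 0.05 before adjustment. Controls 3 and 4 held 177719 and 224087 Xist counts, the other libraries 245 to 471. Xist is a transcript of female cells, so sex appears to differ within the controls, while no Nynrin CKO library had high Xist. Sex is therefore not balanced between the groups. Rragb and Tfe3, compared below, are on the X chromosome. In the libraries with low Xist their log2 fold changes were -0.10 and -0.58. The 8 HSC markers summed to 2194 to 2542 CPM in controls and 2238 to 3036 CPM in Nynrin CKO, none at 0 in any library. Kit carried most of that sum (1305 to 2361 CPM), and 2 of the 8 were lower in every Nynrin CKO library than in every control: Mecom, at 31.1 to 69.7 against 91.4 to 107.5 CPM, and Fgd5, at 18.4 to 20.8 against 23.9 to 50.3 CPM. Of all genes, 4.83% were lower in this way. The 10 markers of neutrophils and their precursors summed to 204 to 359 CPM in controls, at most 519 CPM in Nynrin CKO 1 and 2, and at least 4059 CPM in Nynrin CKO 3 and 4. Mpo carried most of the sum in Nynrin CKO 3 and 4, at 2829 and 2824 CPM. Macrophage markers (8 genes) summed to 68.5 to 95.5 CPM (controls) and 96.2 to 215 CPM (Nynrin CKO), and erythroid markers (6 genes) to 85.5 to 109 CPM and 135 to 254 CPM. B cell markers (6 genes, with Cd79a at 0 in some libraries) summed to 36.8 to 43.1 CPM and 52.1 to 90.3 CPM, and mast cell and basophil markers (6 genes, with Prss34 and Ms4a2 at 0 in some libraries) to 77.2 to 137 CPM and 108 to 185 CPM. Cd79b carried most of the B cell sum, at 32.5 to 76.7 CPM over all libraries. Gata2 was the largest part of the mast cell and basophil sum. It read 67.8 to 109 CPM in controls and 79.0 to 83.6 CPM in Nynrin CKO, with overlap. Endothelial markers (6 genes) stayed between 132 and 184 CPM and T cell markers (5 genes, with Cd8a and Trac at 0 in some libraries) at or below 4.25 CPM in all libraries. Above all controls in every Nynrin CKO library were 7 of 10 neutrophil, 3 of 8 macrophage and 3 of 6 B cell markers. The same held for 2 of 6 erythroid, 1 of 6 mast cell and basophil, and 0 endothelial or T cell markers. Of all genes, 9.52% lay above. In these lists 0 markers lay below all controls. The part of other cells in the values of the Ragulator genes was not tested. In such bulk samples, fewer cells of a type and less RNA per cell cannot be told apart.

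The genes lie on 5 chromosomes of the mm10 assembly. Lamtor2, Lamtor3 and Lamtor5 are on chromosome 3, at chr3:88549819-88553024 (minus strand), chr3:137918506-137928900 (plus) and chr3:107278858-107284082 (plus). Rraga, Rragc and Rragd are on chromosome 4, at chr4:86575668-86577285, chr4:123917446-123936997 and chr4:32983037-33022180 (all plus). Lamtor1 is at chr7:101905904-101926675 (plus), Lamtor4 at chr5:138255482-138259398 (plus) and Flcn at chr11:59791408-59810016 (minus).

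The start regions of 8 of the 9 genes were read from RefSeq (GRCm38.p6) over the 250 bases before each start, and Lamtor3 had no entry. An E-box, CACGTG on either strand, is the element bound by the TFEB, TFE3 and MITF family that drives lysosomal genes, and it stood in 3 of the 8 windows. Among all 32851 windows of that length, 6.02% held it. The 3 windows are shown because they carry the E-box, with that motif and the CCAAT box (CCAAT, or ATTGG on the other strand) in capitals. They are Lamtor1 at chr7:101905587-101905836, Lamtor4 at chr5:138255232-138255481 and, without bases that any exon covers, Rragc at chr4:123917270-123917432, all read 5′ to 3′ on the plus strand.
Lamtor1: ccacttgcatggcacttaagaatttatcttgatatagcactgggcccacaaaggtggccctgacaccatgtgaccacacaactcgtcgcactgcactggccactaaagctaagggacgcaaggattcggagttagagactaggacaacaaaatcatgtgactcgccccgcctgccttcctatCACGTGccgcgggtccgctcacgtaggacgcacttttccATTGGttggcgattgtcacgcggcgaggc
Lamtor4: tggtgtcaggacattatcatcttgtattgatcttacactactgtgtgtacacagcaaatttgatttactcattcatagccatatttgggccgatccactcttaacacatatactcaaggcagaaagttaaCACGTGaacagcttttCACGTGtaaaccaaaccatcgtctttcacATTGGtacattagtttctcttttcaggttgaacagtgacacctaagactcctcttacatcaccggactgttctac
Rragc: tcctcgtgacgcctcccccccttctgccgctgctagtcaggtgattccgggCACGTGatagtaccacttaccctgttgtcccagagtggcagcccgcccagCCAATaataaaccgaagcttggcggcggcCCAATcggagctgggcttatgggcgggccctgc

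The E-box began 68 bases before the start in Lamtor1, 112 before it in Rragc, and 120 and 104 before it in Lamtor4, which held 2 copies. The longer palindrome TCACGTGA, which contains the E-box, stood in 0.785% of all windows and in 0 of the 8. The CCAAT box stood in 5 of the 8 (Lamtor1, Lamtor2, Lamtor4, Lamtor5 and Rragc) and in 33.8% of all windows. A GC box, GGGCGG on either strand, was present in Lamtor2 and Rragc and in 32.7% of all windows. Rraga held an ETS core, CCGGAAG on either strand, 50 bases before its start, a motif in 6.91% of windows. No window of the 8 held TATAAA, which 12.4% of all windows did. Such matches describe letters and do not show binding.

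Among the 9 genes, Lamtor5 had the highest mean level per kilobase in control HSCs and Rragd the lowest. Divided by the length of all exons of the gene, control levels per kilobase (CPM per kb) were 72.5 ± 15.5 for Lamtor5, 32.2 ± 3.31 for Lamtor2, 30.0 ± 2.46 for Rraga, 21.3 ± 3.31 for Lamtor4, 18.4 ± 2.08 for Lamtor1, 15.9 ± 4.46 for Flcn and 7.78 ± 3.37 for Lamtor3 (SD, n = 4). Rragc followed at 2.23 ± 0.257 CPM per kb and Rragd at 0.324 ± 0.201 CPM per kb. Neighbours in this order whose control ranges overlapped were Lamtor2 with Rraga, Lamtor4 with Lamtor1, and Lamtor1 with Flcn. The middle of the order, and the gap below Lamtor5, depended on the length used. With the longest transcript, the control range of Lamtor5 (59.7 to 90.6 CPM per kb) overlapped that of Lamtor2 (52.0 to 66.5). With the median coding transcript, it (64.7 to 98.35 CPM per kb) overlapped that of Lamtor1 (60.1 to 77.3). By means over that length in place of all exons, Lamtor1 reached 66.5 ± 7.51 CPM per kb, just above Lamtor2, and Lamtor3 44.0 ± 19.1 CPM per kb, above Lamtor4. Lamtor5 was still highest and Rragd lowest. Within each Rag pair, 1 paralogue was at the higher level per kb: Rraga was above its paralogue Rragb (5.53 ± 0.525 CPM per kb), and Rragc above Rragd, without overlap of the control ranges.

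**Figure D1:**
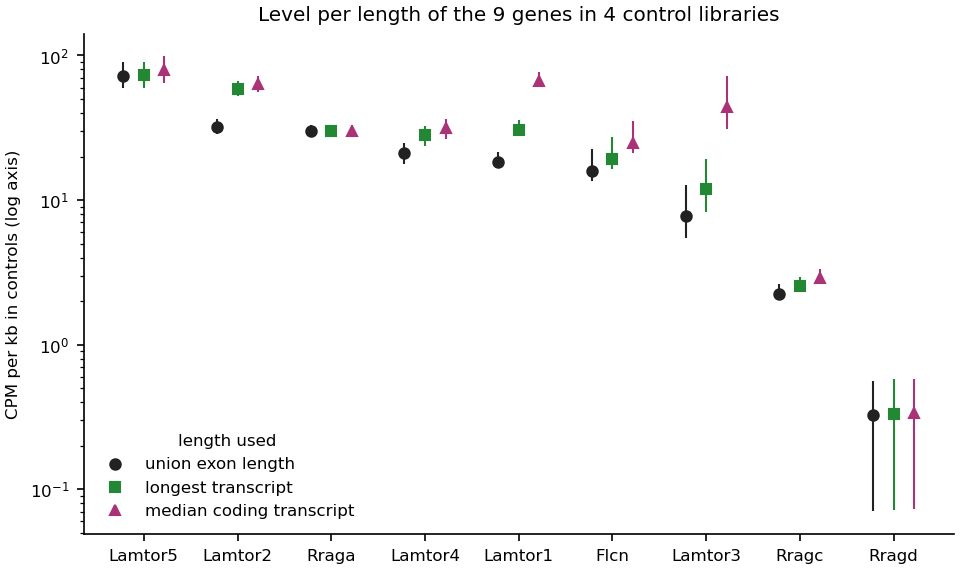
Control level per kilobase (CPM per kb, log axis) of the 9 genes, with 3 symbols per gene for the length used: all exons (circles), the longest transcript (squares) and the median coding transcript (triangles). Symbols are means and lines the lowest to highest of 4 control libraries. By all exons, Lamtor5 is highest at 72.5 and Rragd lowest at 0.324, and Lamtor1 and Lamtor3 shift most with the length used.

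The 5 Lamtor genes were all higher on average in Nynrin CKO HSCs, by 1.27-fold for Lamtor1 to 1.89-fold for Lamtor2, whereas the Rag GTPase genes showed no common direction. Of the 9 genes, 7 had a positive and 2 a negative log2 fold change, with a median of 0.44 against -0.09 over all 27573 genes. By edgeR's quasi-likelihood test, with Benjamini-Hochberg adjustment at 0.05, 2 of the 9 were called higher (Lamtor2 and Lamtor4) and 0 lower, where 2.22% of all genes were called higher and 0.588% lower. All 4 Nynrin CKO libraries lay above all 4 controls for 3 genes (Lamtor2, Lamtor4 and Lamtor5) and below them for none, where 9.52% of all genes lay above and 4.83% below. Of the 9, edgeR called 0 when any of controls 1 to 3 or any Nynrin CKO library was left out, and 3 without control 4. It also called 0 with scaling by total counts, with a replicate block, with the Nynrin CKO pairs summed, in the libraries with low Xist and with a length and GC trend removed. DESeq2 and limma-voom each called 3 of the 9 higher, and edgeR called 5 higher in the receptor-rich libraries. Since the genes were chosen for these differences, nothing is read from those counts.

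Lamtor1 encodes the membrane anchor of Ragulator. Its levels in controls 1 to 4 were 53.5, 57.5, 56.7 and 68.8 CPM, and in Nynrin CKO 1 to 4 they were 68.0, 72.3, 82.7 and 77.9 CPM. The groups met at their edges, since control 4 was slightly above Nynrin CKO 1. The means were 59.1 ± 6.68 and 75.2 ± 6.402 CPM, a log2 fold change of 0.35 (SE 0.11).

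Lamtor2 encodes the p14 subunit, which forms the roadblock-fold pair with LAMTOR3. It measured 39.7, 38.0, 34.8 and 44.4 CPM in the controls and 69.6, 80.8, 74.0 and 72.0 CPM in the Nynrin CKO libraries. The groups lay far apart, with control 4 the highest control and Nynrin CKO 1 the lowest of its group. Means of 39.2 ± 4.04 and 74.1 ± 4.80 CPM gave a log2 fold change of 0.92 (SE 0.11), the highest of the 9 genes.

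Lamtor3 encodes MP1, the partner of p14, which also binds MEK1 and ERK1. Its controls read 29.8, 22.7, 52.7 and 23.9 CPM and its Nynrin CKO libraries 74.1, 43.9, 38.2 and 41.0 CPM. Control 3 was above 3 of the 4 Nynrin CKO libraries, and Nynrin CKO 1 stood well above the rest of its group. The log2 fold change of 0.61 (SE 0.31) fell to 0.36 without Nynrin CKO 1 and was 0.88 without control 3. A pseudogene record, Lamtor3-ps, held 11 to 81 counts per library beside 953 to 3343 for Lamtor3, and how the counting assigned reads with several matches is not known here.

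Lamtor4 and Lamtor5 encode the other roadblock-fold pair of the scaffold. Lamtor4 read 30.6, 23.2, 24.98 and 32.1 CPM in controls and 41.4, 39.8, 42.7 and 44.7 CPM in Nynrin CKO. Lamtor5 read 71.3, 52.8, 52.6 and 79.9 CPM in controls and 96.2, 86.5, 101 and 104 CPM in Nynrin CKO. In both genes all Nynrin CKO libraries were above all controls, with controls 1 and 4 nearest to them. The log2 fold changes were 0.60 (SE 0.13) for Lamtor4 and 0.59 (SE 0.15) for Lamtor5, from means of 27.7 ± 4.31 and 42.1 ± 2.08 CPM and of 64.1 ± 13.7 and 96.8 ± 7.52 CPM.

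**Figure D2:**
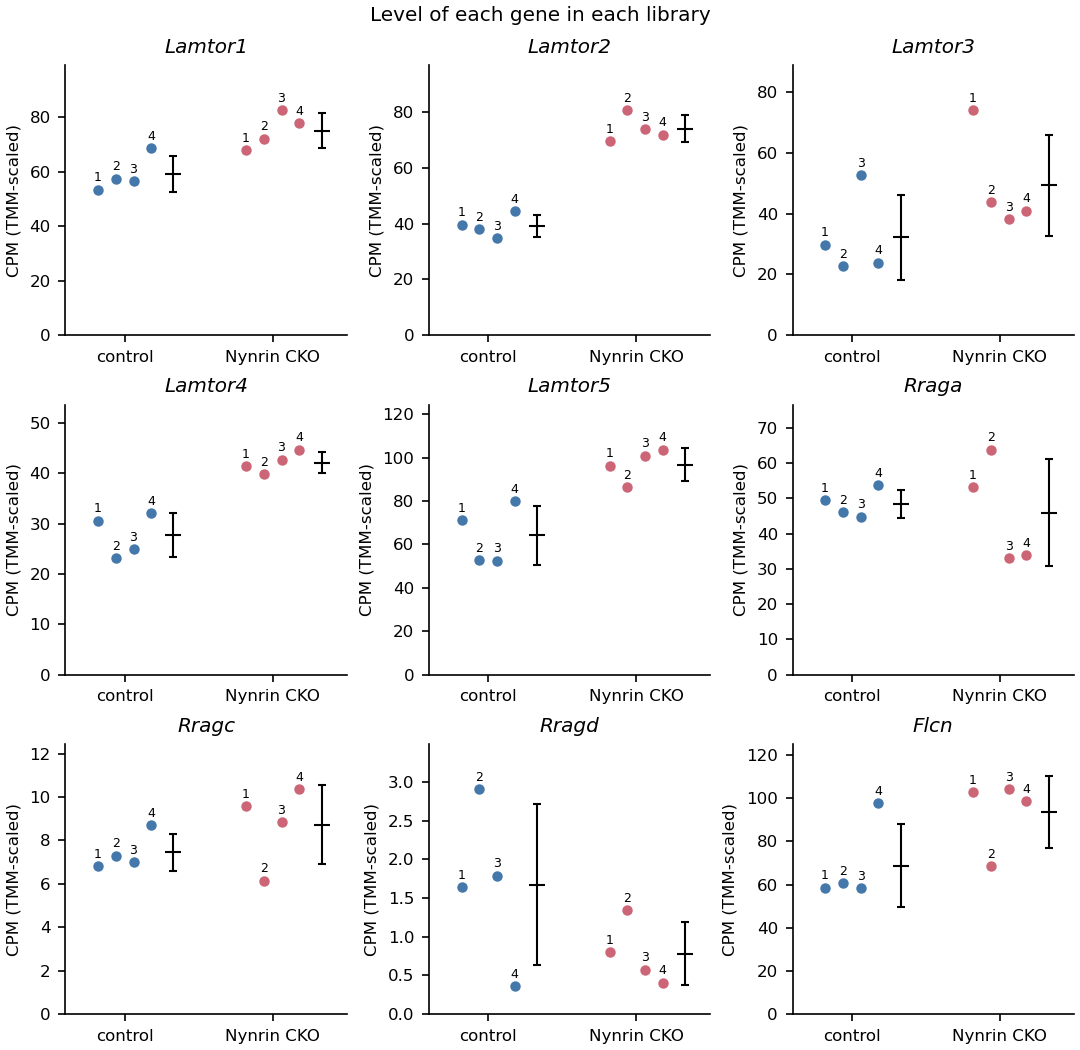
CPM of each of the 9 genes in the 4 control and 4 Nynrin CKO libraries, 1 panel per gene with its own linear axis from 0. Numbered points are libraries and bars are mean ± SD. Lamtor2 shows the widest gap between the groups, with controls at 34.8 to 44.4 and Nynrin CKO at 69.6 to 80.8.

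The summed CPM of the 5 Lamtor genes was 225, 194, 222 and 249 in controls and 349, 323, 338 and 339 in Nynrin CKO. With TMM scaling the groups did not overlap, and the 4 Nynrin CKO libraries were close to each other across the library sets. That closeness depends on the scaling. The TMM factor was 0.805 in Nynrin CKO 3 and 4 and 1.02 to 1.16 in the other libraries. Scaled by total counts, the log2 fold changes of the Lamtor genes were 0.07 (Lamtor1) to 0.66 (Lamtor2). The ratio of Lamtor4 to Lamtor5 hardly moved, at 0.436 ± 0.0303 in controls and 0.436 ± 0.0161 in Nynrin CKO, within 0.402 to 0.475 in all 8 libraries. These ratios are not corrected for length, so only their variation between libraries is read. The ratio of Lamtor2 to Lamtor3 varied far more, between 0.659 and 1.86 (controls) and between 0.940 and 1.94 (Nynrin CKO). It was lowest in control 3 and Nynrin CKO 1, the libraries with the highest Lamtor3 of their groups.

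Rraga encodes RagA. Its control levels were 49.4, 46.1, 44.8 and 53.7 CPM, and its Nynrin CKO levels 53.1, 63.8, 33.1 and 33.9 CPM. The Nynrin CKO group split around the controls: library 1 was near the top of the control range and library 2 above it, and libraries 3 and 4 were below it, at 0.574 of the mean of libraries 1 and 2. The log2 fold change of -0.08 (SE 0.21) covered 0.32 in the receptor-rich libraries and -0.68 in the receptor-poor ones, where control 4 is the lone control. Nynrin CKO 3 and 4 are also the libraries with the high neutrophil marker sum, and which of these goes with Rraga was not tested. The coefficient of variation of Rraga was 8.19% in controls and 32.7% in Nynrin CKO.

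Its paralogue Rragb, which encodes RagB, averaged 12.5 ± 1.19 CPM (controls) and 11.2 ± 0.907 CPM (Nynrin CKO). Its log2 fold change was -0.16 (SE 0.14, edgeR adjusted p = 0.614). The ratio of Rraga to Rragb spanned 3.44 to 4.48 (controls) and 2.93 to 5.34 (Nynrin CKO), so the control range lay inside the Nynrin CKO range.

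Rragc encodes RagC. It read 6.81, 7.31, 7.002 and 8.71 CPM in controls and 9.57, 6.15, 8.84 and 10.4 CPM in Nynrin CKO. The groups overlapped, with Nynrin CKO 2 the lowest of all 8 libraries. Its log2 fold change was 0.23 (SE 0.20) and turned to -0.05 when libraries were scaled by total counts. An antisense record inside the gene, Gm12905, held 70.6% as many counts as Rragc, and with the strand setting of the counting not given, their reads cannot be told apart.

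Rragd encodes RagD, a known target of the TFEB family. It was close to the detection limit, with 17 to 122 counts per library. Levels were 1.64, 2.90, 1.79 and 0.363 CPM in controls and 0.798, 1.34, 0.573 and 0.409 CPM in Nynrin CKO. Control 4 was the lowest library of all, and the other 3 controls were above all Nynrin CKO libraries. The log2 fold change of -1.10 (SE 0.64) was -0.98 in the receptor-rich libraries and turned to 0.43 in the receptor-poor ones.

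Flcn encodes folliculin, the GTPase-activating partner acting on RagC and RagD. Its controls read 58.6, 60.8, 58.3 and 97.7 CPM and its Nynrin CKO libraries 103, 68.7, 104 and 98.7 CPM. Controls 1 to 3 were nearly equal and below every Nynrin CKO library, while control 4 was at the level of Nynrin CKO 4, and Nynrin CKO 2 was the low one of its group. The log2 fold change of 0.44 (SE 0.20) was 0.67 without control 4 and 0.05 in the receptor-poor libraries. Of its partners, Fnip1 averaged 9.36 ± 0.722 CPM (controls) and 9.08 ± 1.77 CPM (Nynrin CKO, log2 fold change -0.04, edgeR adjusted p = 0.937), and Fnip2 10.3 ± 1.42 and 6.67 ± 1.99 CPM (log2 fold change -0.63, adjusted p = 0.177). Neither passed the test, and their difference from Flcn was not tested. An overlapping antisense record, Gm17359, held 13.1% as many counts as Fnip2.

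The ratio of summed Lamtor CPM to the summed CPM of Rraga, Rragb, Rragc and Rragd was 3.26, 2.79, 3.38 and 3.27 in controls. In Nynrin CKO it was 4.66, 3.88, 6.29 and 6.22. Rraga and Rragb made up most of the Rag sum, with means of 61.0 (controls) and 57.1 CPM (Nynrin CKO). Rragc and Rragd together averaged 9.13 and 9.51 CPM. The groups did not overlap, and Nynrin CKO 3 and 4 were the highest, where Rraga was low. Because the Lamtor genes were chosen with their rise known, this gap repeats that choice and nothing further is read from it. The ratio of Rragc to Rragd, 4.15, 2.52, 3.92 and 24.0 in controls and 12, 4.59, 15.4 and 25.4 in Nynrin CKO, rested on the few Rragd counts and was as high in control 4 as in Nynrin CKO 4.

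**Figure D3:**
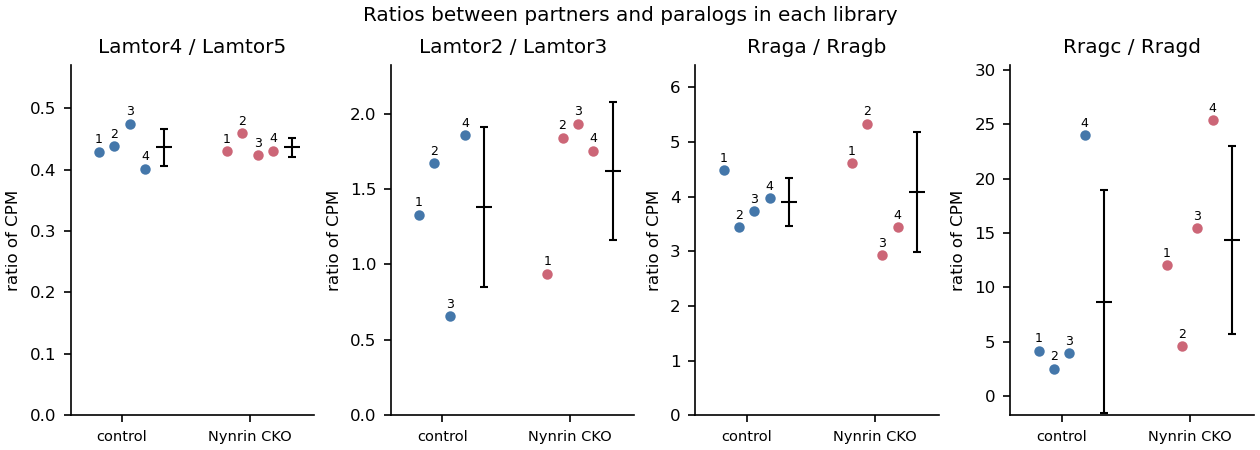
Ratios of CPM between partner genes in each library, 1 panel per ratio on a linear axis, with points for the 4 control and 4 Nynrin CKO libraries and bars for mean ± SD. Lamtor4 over Lamtor5 stays within 0.402 to 0.475. For Rragc over Rragd the SD of the controls (10.3) exceeds their mean (8.65) because of control 4 at 24.0, so its bar reaches below 0.

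The 9 genes differ in transcript length, and log2 fold changes across all expressed genes went with that length. Among 16771 genes with a mean of at least 1 CPM, split into 5 equal groups by longest transcript, the median log2 fold change was 0.38 in the shortest group, then 0.23, 0.08, -0.08 and -0.17 in the longest. Lamtor2, Lamtor4, Lamtor5 and Rraga belong to the shortest group, with longest transcripts of 668, 980, 881 and 1618 bases. Lamtor2 was well above the upper quartile of that group (0.60), Lamtor4 and Lamtor5 were at it, and Rraga was below the lower quartile (0.09). Lamtor1, in the next group, lay between its quartiles of -0.07 and 0.46. In the middle group, Lamtor3 and Flcn were above the upper quartile of 0.34 and Rragc between the quartiles. When a trend on length and GC content was removed from each library, the log2 fold changes were 0.58 for Lamtor2, 0.48 for Lamtor3, 0.30 for Lamtor4, 0.22 for Lamtor5 and 0.13 for Lamtor1, and 0.52 for Flcn.

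**Figure D4:**
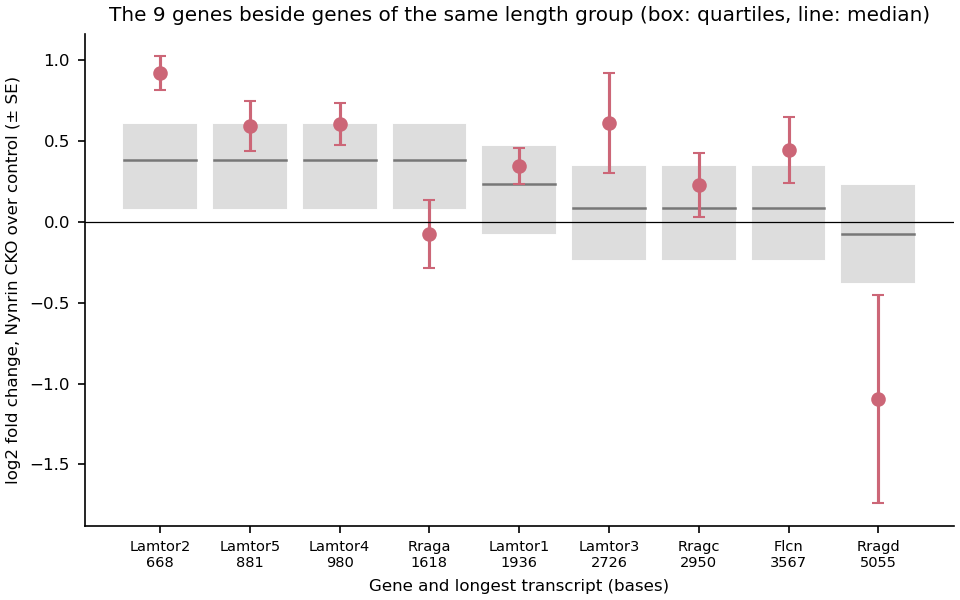
Log2 fold change, Nynrin CKO over control, of the 9 genes (points, with SE bars) in order of longest transcript (bases, under each name). Grey boxes span the quartiles of expressed genes in the same 1 of 5 length groups, with a line at the median. Lamtor2 at 0.92 lies above its box, and Rraga and Rragd below theirs.

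The 6 genes nearest to the mean profile of the Lamtor genes over the 8 libraries encode proteins outside the lysosome. They were picked as the nearest of 9302 genes, and lysosomal genes as a group were not set against this profile. Each gene's log2(CPM + 1) was centred over the libraries and set against the mean of the 5 Lamtor profiles among 9302 genes with a mean of at least 10 CPM. The nearest, by root mean square difference in log2 units, were Mrm3 (0.0459), which encodes a mitochondrial rRNA methyltransferase, Exosc1 (0.0491), of the RNA exosome, Psma3 (0.0536), of the proteasome, Snrpd2 (0.0550), of the spliceosome, Bub3 (0.0566), of the mitotic checkpoint, and Mrpl51 (0.0575), of the mitochondrial ribosome. Of the members, Lamtor4 was the nearest to the mean profile (0.0940), followed by Lamtor5 (0.152), Lamtor2 (0.191) and Lamtor1 (0.192). Set among the 9302 genes they would rank 82, 748, 1470 and 1477, although each Lamtor gene is part of that mean. Lamtor3 (0.395, rank 5770) and Rraga (0.474, rank 7013) were far from it. By the greatest single difference in place of the root mean square, 3 of the 6 nearest genes were the same.

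Around Ragulator, 74 further genes of nutrient sensing and mTORC1 were compared from 13 lists, and all 74 entered the fit. By edgeR's test 6 rose and 2 fell (8.11% and 2.70%), against 2.22% and 0.588% of all genes. Their median log2 fold change was 0.06, with 41 positive and 33 negative. All adjusted p-values of these 8 genes lay between 0.0382 and 0.0478, close to the threshold. None of the 8 passed when any of controls 1 to 3 or any Nynrin CKO library was left out, and 9 of the 74 were higher and 2 lower without control 4.

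Rheb, the small GTPase that switches mTORC1 on at the lysosome, rose from 77.9 ± 4.78 CPM to 132 ± 20.6 CPM. Its controls read 83.7, 72.3, 79.2 and 76.6 CPM and its Nynrin CKO libraries 126, 106, 153 and 142 CPM, with no overlap. The log2 fold change was 0.76 (SE 0.13, edgeR adjusted p = 0.0382), and 0.88 with the length and GC trend removed. Its longest transcript has 4046 bases. It was the 1 gene called among the 5 for Rheb and the TSC complex, which restrains it, with a list median of 0.13.

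Upstream of the Rags, Sec13, a subunit of GATOR2 that also serves COPII coats and the nuclear pore, rose by 0.53 in log2 (SE 0.11, adjusted p = 0.0439), from 98.7 ± 10.6 to 143 ± 8.67 CPM. The other 4 GATOR2 genes did not pass, and the list median was -0.01. Kptn, of the KICSTOR scaffold that places GATOR1 on the lysosome, rose by 0.61 in log2 (SE 0.12, adjusted p = 0.0411), from 23.5 ± 3.04 to 36.0 ± 2.07 CPM, 1 of 4 KICSTOR genes. Of GATOR1, the complex that turns RagA and RagB off, none of 3 genes passed edgeR's test, while 2 had an unadjusted p under 0.05. These were Depdc5, with a log2 fold change of -0.52 (adjusted p = 0.0714), and Nprl2, with 0.49 (adjusted p = 0.127). DESeq2 called 1 of the 3 lower and limma-voom 1 higher.

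Slc38a9, the lysosomal arginine sensor that binds Ragulator, averaged 63.1 ± 6.32 CPM in controls. Its Nynrin CKO libraries split into 62.3 and 59.9 CPM (1 and 2) and 114 and 107 CPM (3 and 4), the opposite way to Rraga. The log2 fold change was 0.45 (SE 0.22, adjusted p = 0.322), with -0.07 in the receptor-rich and 0.88 in the receptor-poor libraries. Of the 7 cytosolic amino acid sensors and their relatives, 0 passed edgeR's, DESeq2's or limma-voom's test and 0 had an unadjusted p under 0.05, with Bmt2 at 0.43 (adjusted p = 0.334) and Sesn1 at 0.34 (adjusted p = 0.340) at the front.

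The 8 genes of mTORC1 and its assembly factors gave 0 calls by edgeR, DESeq2 or limma-voom and 0 unadjusted p-values under 0.05, with a median of 0.08. Rptor, which encodes the subunit that docks on the Rags, had a log2 fold change of 0.46 (adjusted p = 0.305), with -0.02 in the receptor-rich and 0.80 in the receptor-poor libraries. Akt1s1, an inhibitory subunit, had 0.19 (adjusted p = 0.530). It shares part of its region with Tbc1d17 on the other strand, which held 159% as many counts, so its value is uncertain. For mTORC2, 0 of 4 genes passed by any of the 3 tools and 0 had an unadjusted p under 0.05, with Prr5 at 0.98 (adjusted p = 0.265, and 0.09 in the receptor-rich libraries) and Rictor at -0.18 (adjusted p = 0.393). The 11 mTORC1 substrates and effectors had 9 positive and 2 negative log2 fold changes, with a median of 0.25 and 5 at an unadjusted p under 0.05. By edgeR 0 rose, while DESeq2 called 1 and limma-voom 2 higher. In every Nynrin CKO library, 2 of the 11 were above all controls and 2 below, where 9.52% of all genes lay above and 4.83% below. Above were Eif4ebp1, a repressor of cap-dependent translation, at 0.41 (adjusted p = 0.0805), and Maf1, a repressor of RNA polymerase III, at 0.47 (adjusted p = 0.0730). Below were Grb10 and the paralogue Eif4ebp3, at -1.97 (adjusted p = 0.291) with only 1 to 22 counts per library. Eif4ebp3 shares its region with Maskbp3 on the same strand, which held 6710% as many counts, so its value is uncertain. Eif4ebp1, Maf1 and Eif4ebp3 are named here after their values were seen. The 1 called lower by edgeR was Grb10, an adaptor that damps insulin receptor signalling and is encoded by an imprinted gene. It went from 77.3 ± 12.8 to 33.8 ± 12.4 CPM (log2 fold change -1.19, SE 0.25, adjusted p = 0.0458). Its levels were 82.5, 91.0, 74.7 and 60.9 CPM in controls and 41.2, 47.3, 22.9 and 23.6 CPM in Nynrin CKO, apart in all libraries and lowest in Nynrin CKO 3 and 4.

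The TFEB family, whose members the Rags and folliculin keep in the cytoplasm in fed cells, had negative log2 fold changes in 4 of 4 genes, with a median of -0.32, where 44.5% of all genes were positive. Of these, Mitf was at -0.01 (SE 0.18), near 0. None of the 4 passed edgeR's test, with 2 at an unadjusted p under 0.05. DESeq2 called 1 lower and limma-voom called 0. Tfeb read 5.43, 4.88, 5.99 and 4.55 CPM in controls and 3.48, 3.30, 4.21 and 3.77 CPM in Nynrin CKO, low in every library of that group (log2 fold change -0.50, SE 0.20, adjusted p = 0.203). Tfe3, at 57.6 ± 10.8 and 42.7 ± 5.06 CPM, had -0.43 (SE 0.15, adjusted p = 0.152), and Tfec -0.20.

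BORC, the complex that docks on Ragulator and moves lysosomes along microtubules, had positive log2 fold changes in 8 of 8 genes, with a median of 0.38, and 2 rose, where 44.5% of all genes were positive. Its longest transcripts have 613 to 2176 bases. They are spread over the shortest length group of all expressed genes (up to 1665 bases) and the next one. The medians of these length groups were 0.38 and 0.23. Bloc1s2 read 20.3, 22.5, 23.5 and 33.1 CPM in controls and 40.9, 37.9, 51.0 and 48.3 CPM in Nynrin CKO (log2 fold change 0.84, SE 0.17, adjusted p = 0.0444). Kxd1 went from 50.2 ± 7.19 to 93.6 ± 18.0 CPM (log2 fold change 0.90, SE 0.16, adjusted p = 0.0407). Kxd1 shares part of its region with Fkbp8, which holds 120% as many counts, so its value is uncertain. With the length and GC trend removed the values were 0.47 and 0.60. Of the 4 MEK and ERK genes, whose kinases LAMTOR3 scaffolds, Mapk3, which encodes ERK1, rose from 10.8 ± 1.18 to 17.1 ± 1.97 CPM (log2 fold change 0.66, SE 0.14, adjusted p = 0.0478).

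Of 7 amino acid transporter genes 1 fell. Slc38a2, which encodes the neutral amino acid transporter SNAT2, read 340, 298, 261 and 269 CPM in controls and 181, 173, 192 and 195 CPM in Nynrin CKO, with a wide gap between the groups. Its log2 fold change was -0.66 (SE 0.12, adjusted p = 0.0394), and -0.44 with the length and GC trend removed. Its longest transcript has 6116 bases. The others did not pass, and the list median was -0.22.

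**Figure D5:**
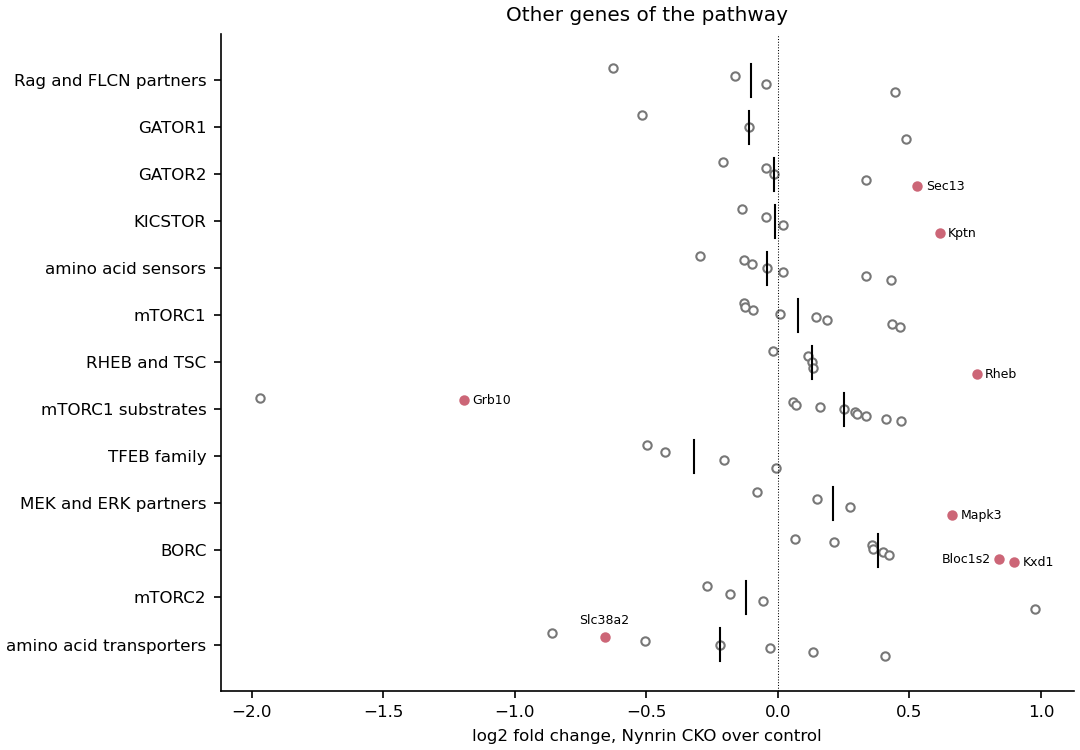
Log2 fold change, Nynrin CKO over control, of 74 other nutrient-sensing genes in 13 lists. Points are genes, filled and named where edgeR's adjusted p was under 0.05, and vertical lines are list medians. All 8 BORC genes lie to the right of 0 and all 4 TFEB family genes to its left.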

How the data were processed

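RNA was measured in 8 libraries of sorted mouse HSCs, 4 Nynrin CKO and 4 control, grouped by their labels. The deposited values are whole read counts for each gene with no normalization, per the file headers. Per the submitters' processing notes the build was mm10. Not given in the sources used here are the aligner, the counting program and the strand setting. The 9 genes, the pathway and marker lists, the tests and the alternatives were chosen with earlier results of these data known.

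The test was that of edgeR 4.0.16, run in R 4.3.3 (filterByExpr, TMM factors, robust quasi-likelihood F-test, Benjamini-Hochberg adjustment, threshold 0.05) on all 8 libraries, and CPM were scaled by the same factors. At the lowest total of 36942835 counts, low genes such as Rragd are imprecise. Replicates were compared by chi-square and none agreed within sampling noise, though the Nynrin CKO libraries formed 2 alike pairs. Exon lengths came from the GENCODE M21 annotation, matched for 55141 of 55401 genes. Sequences came from RefSeq (GRCm38.p6). Named were the 9 genes, Nynrin, Rragb, Fnip1, Fnip2, Slc38a9, Tfeb, Tfe3, up to 4 passing genes of each list by smallest p or else the 2 smallest, and the 6 nearest profiles. Tfec, Mitf, Eif4ebp1, Eif4ebp3, Maf1, Kit, Mecom, Fgd5, Mpo, Cd79b and Gata2 were named after their values were seen. Alternatives were other scaling factors and filters, DESeq2 1.42.0, limma-voom (limma 3.58.1), a fit without robust estimation, a replicate block, leaving out each library, Nynrin CKO pairs summed, library sets, Xist classes and removal of a length and GC trend.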

Additional observations from a re-analysis of the deposited data

Results flagged for a closer look

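In 6 of the 78 groups of 4 libraries examined, over 39 quantities, 1 library lay far from the other 3 relative to the range of its group. Chance gives about 1 in 20 such groups. Lamtor3 in Nynrin CKO 1 was at 74.1 CPM, with the other 3 at 38.2 to 43.9 CPM. Flcn in control 4 was at 97.7 CPM against 58.3 to 60.8 CPM, and in Nynrin CKO 2 at 68.7 CPM against 98.7 to 104 CPM. Control 4 also stood apart for Fnip2, at 8.18 CPM with the others at 10.9 to 11.2 CPM, for Nprl2, at 31.6 CPM with the others at 20.1 to 21.04 CPM, and for the ratio of Rragc to Rragd, at 24.0 with the others at 2.52 to 4.15. Control 4 is the 1 receptor-poor control library.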

How the results depend on the processing

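Lamtor1 to Lamtor5 and Flcn kept a positive log2 fold change under all 22 alternatives, and Rragc under 20 of 21. The lowest values were 0.07 for Lamtor1 (total counts) and 0.05 for Flcn (receptor-poor libraries). These genes were chosen on this comparison and the alternatives reuse the same libraries, so a kept sign is no separate support. The share of all genes that kept their sign was not computed. Over the 9 genes, 177 recomputed log2 fold changes stayed within the spread of the libraries and 19 moved beyond it. The median of the 9 genes was 0.17 with libraries scaled by total counts. The median of all genes was -0.09 with TMM, -0.20 with upper-quartile, -0.14 with RLE and -0.34 with total-count scaling. Genes of the 9 with all Nynrin CKO libraries above all controls numbered 2 with RLE factors, total counts and the length and GC trend removed, 3 to 5 when each library was left out, 6 in the receptor-rich libraries and 6 among the libraries with low Xist, settings that drop libraries and so make overlap less likely. Over all genes, higher and lower calls were 225 and 251 with upper-quartile factors, 13 and 22 with RLE, 59 and 318 with total counts, 33 and 16 with no filter, 1656 and 978 by DESeq2, and 1629 and 495 by limma-voom. Lower calls were 858 among genes with at least 10 CPM in 4 libraries. Calls were 2166 and 1022 in the receptor-rich libraries, 1846 and 1648 in the receptor-poor ones, where control 4 is assumed to vary like the others, and 2 and 2 with the length and GC trend removed. Leaving out each library gave 1 to 1129 higher and 0 to 243 lower. The same replicate numbers did not pair the libraries (correlations of 0.198, 0.21, -0.256 and 0.387 for numbers 1 to 4). In edgeR, the replicate block left 0 higher and 0 lower, with 5144 genes at an unadjusted p under 0.05, Nynrin CKO pairs summed left 0 and 0 (3022 genes) and the low-Xist libraries 0 and 0 (4930 genes). Of the 74 pathway genes, higher calls were 2 with upper-quartile factors, 0 with RLE, total counts, no filter, the block, pairs summed, low Xist and the length and GC trend removed, 15 in the receptor-rich libraries, and 0 to 9 when each library was left out. Lower calls were 0 with RLE, the block, pairs summed, low Xist and the length and GC trend removed, 1 with total counts, 1 with no filter, 6 with the stricter filter, 6 by DESeq2, 4 in the receptor-poor libraries, and 0 to 2 when each library was left out. Their median was -0.19 with total counts, -0.046 with the stricter filter and -0.0461 to 0.13 when each library was left out. The cause of these shifts was not tested.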
